A study of Mus musculus with 8 samples.

Results

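The Wnt signalling genes described here are a list of 33 mouse genes chosen by symbol: 7 ligands, 9 receptors and co-receptors, 7 secreted inhibitors, 6 feedback targets and 4 TCF/LEF transcription factors. All 33 had at least 1 probe on the array, among 45586 genes or unnamed features with a probe, and 25 were among the 20265 that were bright enough to be tested. The samples were cells of mammary tumours from bitransgenic mice, named sSHIP X C(3)1 Tag in the series title. One transgene is a reporter that places GFP under an internal promoter of Inpp5d, which gives a short SHIP1 isoform in stem cells, and the other drives the SV40 large T antigen, which inactivates p53 and the retinoblastoma protein, from a rat C3(1) promoter in mammary epithelium. Both populations compared came from these tumours and therefore shared both transgenes: 4 arrays of Lin-CD49f+GFP+ cells, called GFP-positive here, and 4 of Lin-CD49f+GFP- cells, called GFP-negative. CD49f is integrin alpha 6, a surface protein of basal mammary cells that other cell types also carry, and Lin- means that cells bearing lineage antibodies were gated out. The labels give neither those antibodies nor the age of the mice. Sample titles carry the numbers 566, 567, 573 and 631, once in each population, and each number is read as 1 tumour. Whether the 4 tumours grew in separate animals is not stated, and if any shared an animal the p-values cover no more than the scatter of these arrays. The series compares GFP-positive with GFP-negative cells, and the same arrays also allow the genes to be compared between tumours.

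Wnt ligands are lipid-modified secreted proteins that bind Frizzled receptors together with the co-receptors Lrp5 or Lrp6, which lets beta-catenin build up and act with TCF/LEF factors in the nucleus. Feedback genes such as Axin2, Nkd1, Rnf43 and Znrf3 are switched on by that signal and dampen it, while Sfrp, Dkk, Wif1 and Notum proteins act on it outside the cell. In the mammary gland Wnt signals take part in branching and in the upkeep of basal stem cells, and the first Wnt gene of the mouse was found as an oncogene of mammary tumours.

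Promoter sequence was looked at because the beta-catenin partners bind a short motif. RefSeq promoter windows of assembly GRCm38.p6 were held for 21 of the 33 genes, as 30 windows of the 250 bases before a start site. The letters CTTTGAT or CTTTGAA, on either strand, lay in 4 of these 30 windows (13.3%), those of Dkk1, Sp5, Wnt11 and Wnt5b, and in 2457 of all 32851 windows (7.48%). A match is a description of these letters and not a binding site. Shown are the matching windows of Sp5, a feedback target highest in tumour 631, and of Wnt11 and Wnt5b, ligands that differed between tumours, with that of Fzd1, which held no match and differed between tumours most steadily. They lie at chr2:70474673-70474922 (plus strand), chr7:98834862-98835111 (plus), chr6:119449387-119449636 (minus; 1 of 3 Wnt5b starts) and chr5:4758217-4758466 (minus), and each is written 5′ to 3′ on the gene's strand, up to the base before the start site. Capitals mark the match, which for Wnt11 reads as the opposite strand.
Sp5: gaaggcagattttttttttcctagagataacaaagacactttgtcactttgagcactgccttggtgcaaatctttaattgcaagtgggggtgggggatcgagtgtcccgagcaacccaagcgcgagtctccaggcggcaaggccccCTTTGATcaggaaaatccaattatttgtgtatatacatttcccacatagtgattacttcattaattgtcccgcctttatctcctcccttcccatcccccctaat
Wnt11: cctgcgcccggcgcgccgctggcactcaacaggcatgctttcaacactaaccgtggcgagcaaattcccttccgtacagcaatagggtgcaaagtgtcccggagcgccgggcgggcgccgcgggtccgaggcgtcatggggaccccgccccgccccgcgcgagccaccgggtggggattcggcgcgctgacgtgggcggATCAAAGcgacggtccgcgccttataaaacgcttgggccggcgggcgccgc
Wnt5b: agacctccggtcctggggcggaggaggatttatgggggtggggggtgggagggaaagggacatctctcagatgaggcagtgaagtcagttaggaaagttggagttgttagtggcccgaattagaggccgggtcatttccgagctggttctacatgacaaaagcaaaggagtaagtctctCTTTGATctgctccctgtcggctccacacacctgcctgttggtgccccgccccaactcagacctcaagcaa
Fzd1: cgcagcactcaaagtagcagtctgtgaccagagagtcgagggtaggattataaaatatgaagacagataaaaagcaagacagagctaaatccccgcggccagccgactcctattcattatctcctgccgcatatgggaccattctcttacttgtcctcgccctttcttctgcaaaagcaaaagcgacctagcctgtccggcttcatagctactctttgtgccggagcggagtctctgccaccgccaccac
Counted from the start site, the match begins at -104 in Sp5, -51 in Wnt11 and -71 in Wnt5b.

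Each level given here is the log2 of the processed intensity minus that array's 75th percentile, so that 0 is a bright probe of that array, a difference of 1 is a doubling, and levels of different genes are not compared. Spots called well above background were 53.5% to 58.5% of gene spots on 7 arrays and 34.1% on the GFP-positive array of tumour 573, where the lowest intensity called was 142 against 13.4 to 23.5 elsewhere. Dim values on that array are therefore poorly measured. Among the tested members, Lef1, Tcf7, Fzd4, Fzd6, Fzd8, Wnt5a, Wnt6, Wnt10b and Wnt11 were not well above background there. They were bright enough to be tested through their GFP-negative arrays only. All 13 epithelial marker genes were well above background on 7 arrays and 12 of them on that array. Their mean level was between 2.69 and 4.18 on 7 arrays and -0.22 on the GFP-negative array of tumour 631. Summed, they were 338 times the 75th percentile on that array and 372 to 706 times on the others, a much smaller gap. Krt8 and Krt18, at 6.52 and 7.91 there, lay within their range on the other arrays. The other epithelial markers each had their lowest value there. The 12 fibroblast markers summed to 15.2 (GFP-positive) and 19.0 (GFP-negative) times the array's 75th percentile in tumour 573 and to between 57.5 and 244 on the other arrays. Endothelial markers summed to 42.0 on the GFP-positive array of tumour 566 and to between 2.73 and 9.65 elsewhere. All arrays were on 1 slide, GFP-positive in one column and GFP-negative in the other, so the column of the slide and the population cannot be told apart.

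None of the 25 tested Wnt genes passed the test between GFP-positive and GFP-negative cells. Ligands, receptors and TCF/LEF factors were split in direction, and the gene with the largest mean difference, Nkd1, was 1.14 higher in GFP-positive cells with a standard error of 0.59 (n = 4 and 4). Every member's adjusted p was 1.00 by limma with Benjamini-Hochberg adjustment over all 20265 genes, and no gene of the whole array passed either (0%; smallest adjusted p 0.675). At an unadjusted p under 0.05 stood 0 of the 25 and 161 of all genes (0.794%). With the tumour number as a replicate block the counts at that unadjusted level were 6 of 25 and 1113 of all genes (5.49%), again with none passing after adjustment. The smallest adjusted p of a member with the block was 0.855. Standard errors and intervals given for single genes are of the fit without a block unless stated, so they include the spread between tumours. With the block the standard error was 0.27 for Lef1, 0.15 for Wnt11 and 0.22 for Wnt10a, against 1.08, 0.76 and 0.75 without it. For Wnt10b it was not smaller, at 0.35 against 0.34. The 6 were Fzd1, Wnt10a, Nkd1, Nkd2, Fzd8 and Wnt6. Of these, Nkd1 and Nkd2 had the higher mean in GFP-positive cells and the others in GFP-negative cells. Nkd1 passed the brightness filter through GFP-positive cells only, and Fzd8 and Wnt6 through GFP-negative cells only. The filter thus favoured the direction that each of them showed, and no excess is read from the count of 6. Without the block, leaving out the GFP-positive array of tumour 573 or the GFP-negative array of tumour 631 also gave 0 calls.

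Of the 25 genes, 12 had a mean above 0 in the GFP-positive minus GFP-negative difference, against 36.5% of all genes. Their median difference was -0.02, and that of all genes was -0.06. On the brightest passing probe of each gene, Nkd2 alone was higher in GFP-positive cells of all 4 tumours, a pattern held by 3.39% of all genes. Fzd1, Fzd8, Wnt10a and Notum were lower in all 4, a pattern held by 10.8%. For Nkd2 and Notum a second passing probe did not show that pattern. For Fzd8 the GFP-positive value of tumour 573 was not well above background, so its pattern there is uncertain. The pericyte and smooth muscle markers also lay lower in GFP-positive cells: 7 of 12 did so in all 4 tumours and 3 of these, Rgs5, Higd1b and Gucy1a1, without overlap. Their mean level was 0.23, -0.11, -0.96 and 0.54 in GFP-positive and 1.20, 1.51, 0.81 and 1.25 in GFP-negative cells of tumours 566, 567, 573 and 631. Of the 10 endothelial markers, 4 were higher in GFP-positive cells of all 4 tumours, 3 of them, Pecam1, Cdh5 and Vwf, without overlap. Their GFP-positive values in tumour 573, like those of Rgs5, Higd1b and Gucy1a1, were not well above background. On that array undetected probes read high, so the pattern of Pecam1, Cdh5 and Vwf is not established in tumour 573. Plvap, the other of the 4, was well above background on all 8 arrays. It read 3.00 in GFP-positive and 2.50 in GFP-negative cells of tumour 573. Pecam1 and Cdh5 also missed the brightness filter, so the shares of all genes given here do not apply to them. The part of either cell type in the Wnt gene levels was not tested. In no member did the populations separate without overlap, which 0.834% of all genes did. The pairs did not lean the same way: 4 of 25 genes were higher in the GFP-positive cells of tumour 566, 12 in tumour 567, 15 in tumour 573 and 16 in tumour 631. In sorted bulk RNA, fewer cells of a type and less RNA per cell cannot be told apart.

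**Figure D1:**
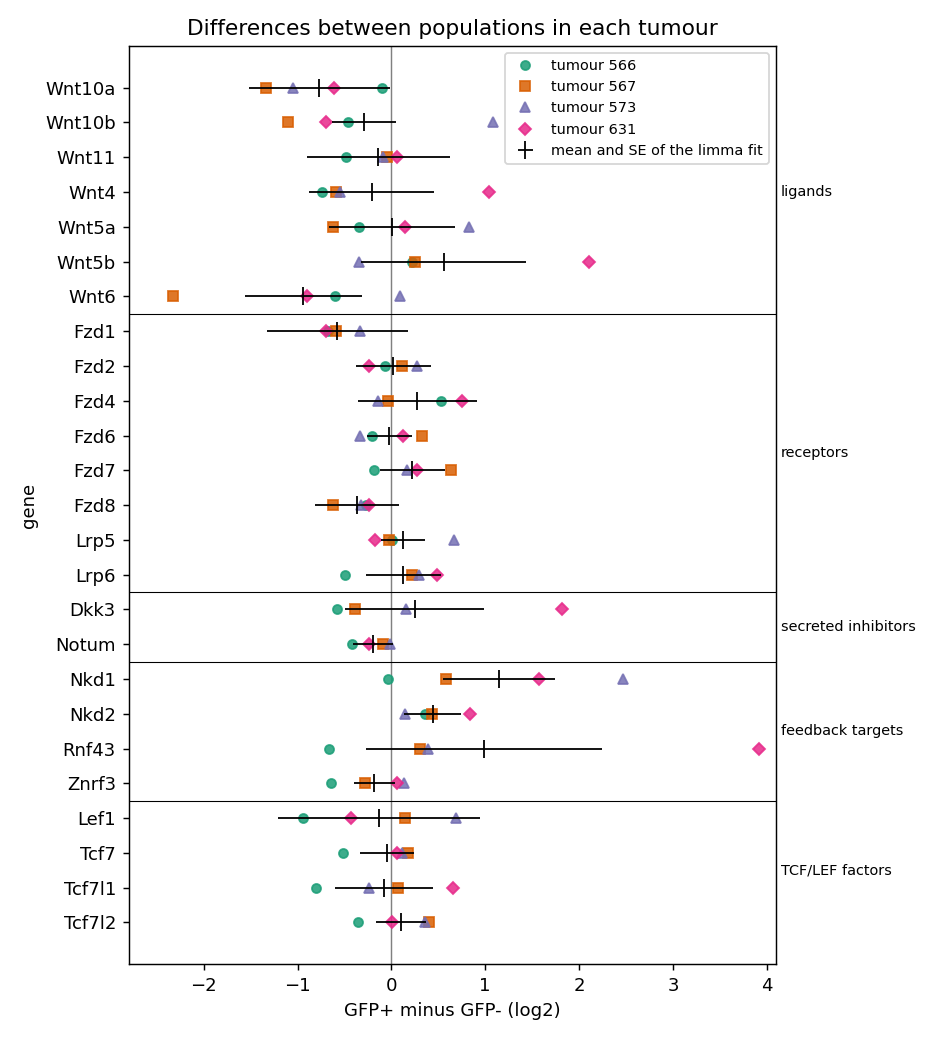
Differences between GFP-positive and GFP-negative cells for the 25 tested Wnt genes, grouped by role, on the log2 scale. Dots are the 4 tumours and the bar is the mean with its standard error in the fit without a block. The pairs scatter on both sides of 0 for most genes, and the dot of tumour 631 for Rnf43 lies farthest out at 3.92.

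Among the ligands, 2 of 7 had a mean above 0 and none passed between populations, and the median difference was -0.21. Wnt10a, a ligand of canonical signalling, had levels of 4.49, 3.46, 1.40 and 4.06 in GFP-positive cells and 4.59, 4.80, 2.45 and 4.67 in GFP-negative cells, in the order of tumours 566, 567, 573 and 631, which is kept for every list of 4 values below. It was lower in GFP-positive cells of every tumour, by between 0.09 and 1.33, but the populations overlapped because tumour 573 was low in both. The mean difference was -0.77 with a standard error of 0.75 (95% interval -2.47 to 0.93), and -0.68 over the other 3 tumours when tumour 573 was left out. With the block its unadjusted p was 0.0131 and its limma adjusted p 0.889.

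Wnt6, another canonical ligand, measured 0.34, -1.91, -1.37 and -0.50 in GFP-positive cells and 0.95, 0.42, -1.46 and 0.40 in GFP-negative cells. It was lower in GFP-positive cells in 3 of 4 tumours, and in tumour 573, where the GFP-positive value was not well above background, the arrays differed by 0.09. The mean was -0.94 (SE 0.62, interval -2.34 to 0.47). Wnt10b, also canonical, was lower in GFP-positive cells of 3 tumours, with a mean of -0.30 (SE 0.34) over differences from -1.11 to 1.09.

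Wnt5a, the best known ligand of beta-catenin independent signalling, measured -1.40, -1.65, -1.18 and 0.80 in GFP-positive cells and -1.05, -1.04, -2.01 and 0.65 in GFP-negative cells. Both arrays of tumour 631 stood above all others, while the populations differed by a mean of 0.0028 (SE 0.67, interval -1.52 to 1.53). Wnt5b, its close relative, measured 2.98, 1.78, 3.17 and 1.33 in GFP-positive cells and 2.77, 1.53, 3.51 and -0.78 in GFP-negative cells. The populations lay within 0.35 of each other in 3 tumours and 2.11 apart in tumour 631, the difference being 0.56 (SE 0.88) with that tumour and 0.041 without it. The other Wnt5b probe gave the same picture, with its lowest value, -2.60, on that array.

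Wnt4, a ligand of hormone-driven branching in the mammary gland, measured -0.10, -0.85, -0.33 and -1.54 in GFP-positive cells and 0.64, -0.26, 0.22 and -2.58 in GFP-negative cells. It was lower in GFP-positive cells by 0.55 to 0.74 in 3 tumours and higher by 1.04 in tumour 631, which had the lowest values of both populations. The mean was -0.21 (SE 0.67) with all arrays and -0.63 without tumour 631. Wnt11, which signals in cell movement and shape, measured -0.58, -0.44, -3.01 and -0.47 in GFP-positive cells and -0.10, -0.40, -2.92 and -0.54 in GFP-negative cells. The 6 arrays of 3 tumours lay between -0.58 and -0.10 and both arrays of tumour 573 far below them, the GFP-positive one not well above background. Its difference between populations was -0.14 (SE 0.76, interval -1.88 to 1.60).

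Among the receptors, 8 of 9 were tested, 5 had a mean above 0 and none passed, with a median difference of 0.07. Fzd1, a Frizzled receptor, measured 0.94, 2.08, 0.33 and 3.02 in GFP-positive cells and 1.62, 2.67, 0.67 and 3.71 in GFP-negative cells. Each tumour kept its place in the same order in both populations, from 573 up to 631, and the GFP-positive cells lay below in each by 0.33 to 0.69. The mean was -0.57, with a standard error of 0.75 between all arrays and 0.14 within tumours, where the unadjusted p was 0.00527 and the limma adjusted p 0.855. Over the 3 pairs other than tumour 631 the mean was -0.54.

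Fzd8, whose protein is a high-affinity Wnt receptor, measured -3.28, -1.91, -2.25 and -1.81 in GFP-positive cells and -3.02, -1.29, -1.92 and -1.56 in GFP-negative cells. It was lower in GFP-positive cells of all 4 tumours by 0.24 to 0.62, with a mean of -0.36 (SE 0.45). The GFP-positive value of tumour 573 was not well above background, and the gene passed the brightness filter through GFP-negative cells only. Fzd4, the receptor of norrin as well as of Wnts, measured -0.20, -1.40, -1.28 and -2.53 in GFP-positive cells and -0.73, -1.37, -1.14 and -3.28 in GFP-negative cells. Tumour 566 was the highest and tumour 631 the lowest in both, and the population difference was 0.27 (SE 0.63). Fzd2 measured 1.06, 0.88, -0.02 and 1.06 in GFP-positive cells and 1.13, 0.77, -0.30 and 1.30 in GFP-negative cells, with tumour 573 below the rest and a difference of 0.02 (SE 0.40). Fzd7, a receptor described in basal breast tumours, measured -0.11, -0.17, -0.09 and -1.02 in GFP-positive cells and 0.08, -0.81, -0.25 and -1.29 in GFP-negative cells, with tumour 631 lowest and a difference of 0.22 (SE 0.35). Fzd6, which acts in planar cell polarity, stayed between -1.96 and -1.09 on the 8 arrays with a difference of -0.02 (SE 0.24, interval -0.57 to 0.52).

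The co-receptors were bright on all 8 arrays. Lrp5 lay between 0.90 and 1.86, with a difference of 0.12 (SE 0.24, interval -0.42 to 0.66). Lrp6 measured 2.60, 1.94, 2.57 and 1.77 in GFP-positive cells and 3.09, 1.72, 2.28 and 1.28 in GFP-negative cells, so that tumours 566 and 573 stood above 567 and 631 in both, and the populations differed by 0.13 (SE 0.40). Lgr5, the R-spondin receptor that marks several adult stem cells, was not tested. It was well above background on 3 arrays of GFP-positive cells (-1.78, -4.11 and -4.45 in tumours 566, 567 and 631) and on the GFP-negative arrays of tumours 566 and 567 (-1.91 and -2.21).

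Of the secreted inhibitors, 2 of 7 passed the brightness filter, and neither passed between populations. Notum, the enzyme that strips the lipid from Wnt ligands and is itself a target of the pathway in other tissues, measured 2.15, 2.66, 2.29 and 2.63 in GFP-positive cells and 2.57, 2.75, 2.31 and 2.87 in GFP-negative cells. It was lower in GFP-positive cells of all 4 tumours by 0.01 to 0.42, with a mean of -0.19 (SE 0.21, interval -0.68 to 0.29), and its tumour means spanned 0.45. The second Notum probe gave -0.31, with 0.26, 0.013, -0.89 and -0.64 in the 4 tumours, higher in GFP-positive cells of 2 and lower in 2. Dkk3, a Dickkopf relative with a weak tie to Wnt receptors, measured 1.75, -0.73, 0.51 and 0.92 in GFP-positive cells and 2.34, -0.34, 0.36 and -0.89 in GFP-negative cells. Its difference of 0.25 (SE 0.74) turned to -0.27 without tumour 631.

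The other 5 inhibitors missed the filter. Dkk1, the Lrp co-receptor antagonist, was not well above background on any of the 8 arrays. Dkk2 was well above background in GFP-positive cells of tumours 566 (-3.38) and 631 (-1.66) and in GFP-negative cells of tumour 631 alone (-2.00). Sfrp1, a decoy that binds Wnts, was detected in GFP-positive cells of tumours 566, 567 and 631 at -1.64, -3.88 and -3.17 and in GFP-negative cells of tumours 566, 567 and 573 at -2.61, -4.38 and -0.91. Sfrp2, its relative and a product of fibroblasts, was detected at -0.52, -2.07 and -1.92 in GFP-positive cells of tumours 566, 567 and 631 and at -1.94 and -1.67 in GFP-negative cells of tumours 566 and 567. Wif1, another Wnt-binding protein, was detected in GFP-positive cells of tumours 566, 567 and 631 and in GFP-negative cells of tumours 566 and 573, at levels from -4.96 to -2.94. Lgr5, Sfrp1, Sfrp2 and Wif1 were thus detected in the GFP-positive and not in the GFP-negative cells of tumour 631, where the GFP-negative array also had the lowest epithelial marker mean. The fibroblast marker mean of that tumour was also lower in GFP-negative cells, at -0.15 against 1.72. The pericyte and smooth muscle mean was higher there, at 1.25 against 0.54. The part of any of these cell types in these values was not tested.

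Among the feedback targets, which read out beta-catenin activity, 4 of 6 were tested and 3 had a mean above 0, with a median difference of 0.71. Nkd1 and Rnf43 passed the brightness filter through GFP-positive cells only, so the filter itself favoured means above 0 here. Axin2 and Sp5, which missed it, were each lower in GFP-positive cells of 3 tumours, counting values not well above background. No lean of the feedback targets is therefore read from these numbers. Nkd1, a Dishevelled-binding inhibitor, measured -2.29, -2.77, -0.85 and -3.06 in GFP-positive cells and -2.26, -3.35, -3.31 and -4.63 in GFP-negative cells. It was higher in GFP-positive cells of 3 tumours by 0.58 to 2.46 and differed by -0.04 in tumour 566, and the value of tumour 631 in GFP-negative cells was not well above background. The mean of 1.14 (SE 0.59, interval -0.21 to 2.49) had an unadjusted p of 0.087. It was 0.70 without tumour 573. Nkd2, its relative, measured 1.89, 2.28, 2.30 and 1.71 in GFP-positive cells and 1.54, 1.85, 2.15 and 0.87 in GFP-negative cells. The difference was above 0 in all 4 tumours, from 0.15 to 0.84, with a mean of 0.44 (SE 0.30, interval -0.24 to 1.13), and 0.31 without tumour 631. Its second probe gave 0.90, with 0.025, 0.95, -0.050 and 2.66 in the 4 tumours, so that the direction in tumour 573 depended on the probe.

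Rnf43, the ubiquitin ligase that removes Frizzled receptors from the surface, measured -0.17, -0.09, 0.17 and -1.82 in GFP-positive cells and 0.49, -0.39, -0.22 and -5.74 in GFP-negative cells. The last value, not well above background, lay far below the other 7. The difference was 0.99 (SE 1.26) with all arrays and 0.0099 without tumour 631. Znrf3, the partner of Rnf43, did not share the low value: it lay between -1.02 and -0.30 on all 8 arrays, with a difference of -0.18 (SE 0.22, interval -0.68 to 0.31). Axin2, the most used reporter gene of the pathway, was well above background on 5 of 8 arrays and was not tested. Those were the GFP-positive arrays of tumours 566 and 631 (-4.41 and -3.62) and the GFP-negative arrays of tumours 566, 567 and 631 (-4.15, -4.48 and -3.56). Sp5, a target in many tissues, was detected in tumour 631 at -1.98 in GFP-positive and -1.57 in GFP-negative cells, above its values of -4.32 and -3.60 in tumour 567 and -3.85 in GFP-negative cells of tumour 573.

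All 4 TCF/LEF factors were tested, and 1 had a mean above 0. Lef1, the member that is often itself a Wnt target, measured -0.92, 1.83, -1.80 and 1.11 in GFP-positive cells and 0.02, 1.69, -2.49 and 1.54 in GFP-negative cells. Tumours 567 and 631 were high and tumours 566 and 573 low in both populations, while the difference between populations was -0.13 (SE 1.08, interval -2.59 to 2.32). Tcf7l1, mainly a repressor, measured -0.08, -0.41, -0.28 and -1.22 in GFP-positive cells and 0.72, -0.48, -0.05 and -1.87 in GFP-negative cells, with tumour 631 lowest and a difference of -0.08 (SE 0.52). Tcf7l2 lay between 0.74 and 1.76 with a difference of 0.10 (SE 0.26), and its 4 probes gave differences from 0.10 to 0.21. Tcf7, a factor best known in T cells, lay between -1.86 and -0.72 with a difference of -0.04 (SE 0.29, interval -0.70 to 0.61).

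More Wnt genes passed a test between tumours than between populations. The test asked whether the mean level of a gene differed among the 4 tumours after allowing for population, so the error is how far the 2 populations disagreed about the tumours. It passed for 13 of 25 members (52.0%) and 5834 of 20265 genes (28.8%), by limma's moderated F with Benjamini-Hochberg adjustment over all genes. The 13 were 5 of 7 ligands (Wnt11, Wnt10a, Wnt5b, Wnt5a, Wnt4), 6 of 8 receptors (Fzd1, Fzd4, Fzd8, Fzd2, Lrp6, Fzd7) and 2 of 4 TCF/LEF factors (Lef1, Tcf7l1). No secreted inhibitor (0 of 2) and no feedback target (0 of 4) passed, although Rnf43, with the widest span of tumour means among the 25 tested genes at 3.94, had an adjusted p of 0.0601. That span rests on the GFP-negative value of tumour 631, which was not well above background. The median span of tumour means was 1.77 over the 25 members and 0.82 over all genes. Each tumour gave 1 RNA per population, so the test does not measure how far pieces of a tumour differ.

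The calls depended on the arrays and the handling of dim probes. Leaving out 1 array or 1 tumour left between 5 and 12 members called. Without tumour 573, 5 of 30 members tested passed (16.7%) and 14.1% of all genes, so the members then lay near the share of all genes. Without the GFP-negative array of tumour 566, 6 of 26 passed (23.1%, against 13.1% of all genes). The count was 7 of 25 (28%) without the GFP-positive or the GFP-negative array of tumour 567, against 7.74% and 7.11% of all genes. It was 8 of 29 (27.6%, against 15.2%) without the GFP-positive array of tumour 573 and 11 of 26 (42.3%, against 14.6%) without the GFP-negative array of tumour 631. With all values raised to a common floor at the level of the least sensitive array, 2 of 25 passed (8%), Fzd1 and Wnt5a, and 7.41% of all genes, again a share near that of all genes. With the unfiltered probes none of 33 members and no gene passed. Fzd1 and Lef1 were called in all 12 fits that left out an array or a tumour, Wnt11 and Fzd4 in 11, Wnt10a in 10, Fzd8 in 9, Wnt5a in 7, Fzd2 in 6, Wnt5b in 5, Tcf7l1 in 4, Wnt4 in 3, Lrp6 in 1 and Fzd7 in 0.

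**Figure D2:**
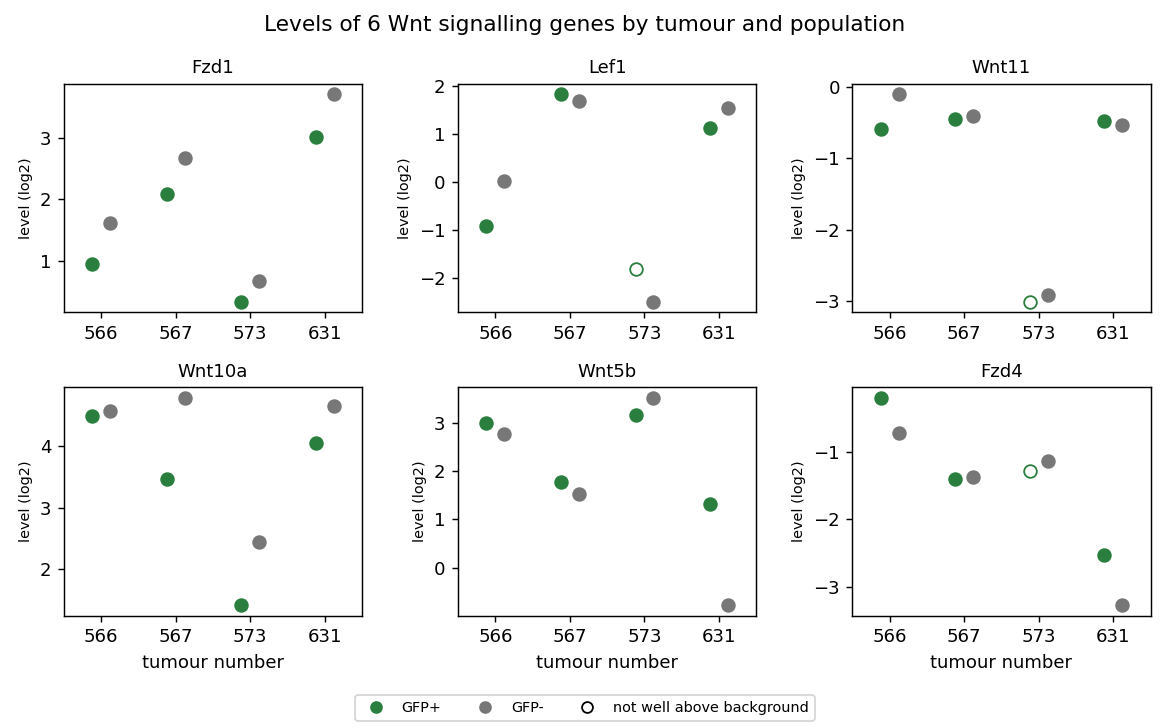
Levels of 6 Wnt genes by tumour number on the log2 scale, relative to each array's 75th percentile, with GFP-positive and GFP-negative cells as separate points. For Fzd1 the points of a tumour lie close together while tumours lie apart, with tumour means from 0.50 in tumour 573 to 3.36 in tumour 631. Other panels are less even: the 2 points of Wnt5b lie 2.11 apart in tumour 631 and those of Wnt10a 1.33 apart in tumour 567.

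Fzd1 had tumour means of 1.28, 2.37, 0.50 and 3.36, a span of 2.87 or 7.29-fold (adjusted p = 0.00561). Its place was held with the common floor, where the adjusted p was 0.0212. Lef1 had means of -0.45, 1.76, -2.14 and 1.33, a span of 3.90, with an adjusted p of 0.00752 that became 0.0508 with the common floor. Of the 2 arrays of tumour 573, its low end, only the GFP-negative one was well above background. Lef1 and Fzd1 thus shared the low tumour, 573, and the high pair, 567 and 631.

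Tumour 573 was the low one for several members. Wnt11 had means of -0.34, -0.42, -2.96 and -0.50, with an adjusted p of 0.00603. In tumour 573 it was well above background in GFP-negative cells only, so no fold is given. The second Wnt11 probe showed the same, with -3.42 and -3.25 in tumour 573 and between -1.68 and -0.89 elsewhere. Wnt10a had means of 4.54, 4.13, 1.92 and 4.36, a 6.14-fold span (adjusted p = 0.01), and here all 8 values were bright. Fzd2 had means of 1.09, 0.83, -0.16 and 1.18, a 2.53-fold span (adjusted p = 0.018). Both arrays of tumour 573 lay below the other 6 in 5 of 25 members (Lef1, Fzd1, Fzd2, Wnt10a and Wnt11) and in 12.1% of all genes, and above the other 6 in 2 (Wnt5b and Lrp5) and in 15% of all genes. The summed fibroblast markers were also lowest on both arrays of tumour 573, and their part in these levels was not tested.

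Tumour 631 was low for other members and high for a few. Both of its arrays lay below the other 6 in 7 of 25 members (Tcf7, Tcf7l1, Rnf43, Fzd4, Fzd7, Wnt4 and Wnt5b), against 10.7% of all genes, and above the other 6 in 2 (Fzd1 and Wnt5a), against 14.5%. Wnt5b had means of 2.88, 1.65, 3.34 and 0.27, an 8.37-fold span (adjusted p = 0.0282). Fzd4 had means of -0.46, -1.38, -1.21 and -2.91, a 5.44-fold span (adjusted p = 0.0107). Wnt4 had means of 0.27, -0.56, -0.06 and -2.06, a 5.03-fold span (adjusted p = 0.0342), and Tcf7l1 had means of 0.32, -0.44, -0.17 and -1.54, a 3.65-fold span (adjusted p = 0.035). Wnt5b, Fzd4, Wnt4 and Tcf7l1 did not pass with quantile normalization (limma F adjusted p 0.0619, 0.0508, 0.0798 and 0.0786), nor with the common floor. Wnt11, Wnt10a and Fzd2, low in tumour 573, passed with quantile normalization but not with the floor. For Wnt5a tumour 631 was instead the highest, with means of -1.22, -1.35, -1.60 and 0.72 (adjusted p = 0.0178). The GFP-positive value of tumour 573, at the low end, was not well above background. Wnt5a and Wnt5b, related in sequence, therefore ran in opposite order at tumour 631.

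**Figure D3:**
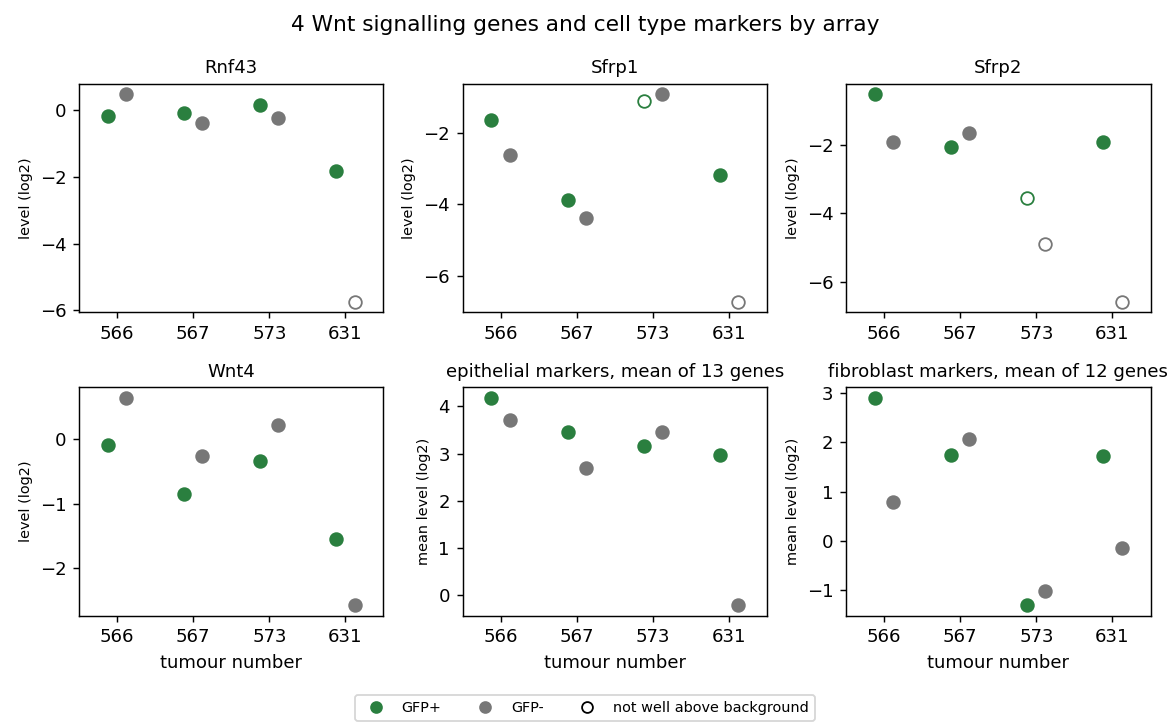
Levels of Rnf43, Sfrp1, Sfrp2 and Wnt4 beside the mean of 13 epithelial and of 12 fibroblast marker genes, by tumour and population, on the log2 scale. The GFP-negative array of tumour 631 holds the lowest value of all 4 genes, for example -5.74 for Rnf43, and the lowest epithelial mean, -0.22.

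The remaining called receptors had smaller spans. Fzd8 was lowest in tumour 566, with means of -3.15, -1.60, -2.08 and -1.69, a 2.92-fold span (adjusted p = 0.0112). Lrp6 spanned 2.5-fold, from 1.53 in tumour 631 to 2.85 in tumour 566 (adjusted p = 0.0403). Fzd7 spanned 2.2-fold, from -1.15 in tumour 631 to -0.01 in tumour 566 (adjusted p = 0.0453). Lrp6 and Fzd7 did not pass with quantile normalization (limma F adjusted p 0.0757 and 0.0835) or with the common floor. The 12 that did not pass were Wnt10b, Wnt6, Fzd6, Lrp5, Tcf7, Tcf7l2, Notum, Dkk3, Nkd1, Nkd2, Rnf43 and Znrf3, with adjusted p from 0.0527 for Dkk3 to 0.847 for Wnt10b.

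The rest of the pathway was taken from a further list of 84 genes, of which 83 had a probe and 59 were tested. None passed between populations by limma. The GFP-positive mean was above the GFP-negative mean for 35 and below it for 24, with a median difference of 0.05. Of the 59, 0 had an unadjusted p under 0.05, and 5 had one with the replicate block. The smallest unadjusted p was that of Sfrp4, a secreted Wnt-binding inhibitor, which measured 1.11, -1.49, -0.18 and -1.78 in GFP-positive cells and -1.79, -0.42, -5.22 and -4.79 in GFP-negative cells. It was higher in GFP-positive cells in 3 of 4 tumours, and the last 2 values were not well above background. Its difference was 2.47 (SE 1.12, unadjusted p = 0.0557 by limma). Sfrp4 passed the brightness filter through GFP-positive cells only, so the filter itself favoured a difference above 0. The next were Prickle1, a planar polarity gene (0.47, SE 0.25), Axin1, a scaffold of the beta-catenin destruction complex (-0.30, SE 0.19), Dkkl1, a Dickkopf-like gene (0.83, SE 0.57), Celsr1, a polarity cadherin (0.80, SE 0.71), and Fzd5, a receptor (0.71, SE 0.63). Beta-catenin itself, Ctnnb1, differed by 0.02 (SE 0.20, interval -0.42 to 0.46) and lay between 3.07 and 3.55 on the 8 arrays.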

How the data were processed

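Total RNA of sorted cells was hybridised to 8 one-colour Agilent arrays. The deposited values are spot intensity, which per the file headers had been background-subtracted and detrended without normalization across arrays. The software was Agilent Feature Extraction 10.7.3.1, per the submitters' processing notes. A table of the whole series, also deposited, repeated the same intensity in all 62976 spots of each array. Control and outlier spots were dropped and the spots of each probe averaged, which kept 56555 of 56605 gene probes. Names came from accessions matched to RefSeq (GRCm38.p6), which gave 32964 probes a symbol. The log2 intensity was reduced by each array's 75th percentile over gene spots. A probe passed if well above background on all 4 arrays of a population, and the brightest passing probe stood for a gene (20265 genes).

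Populations were compared with limma 3.58.1 (R 4.3.3), lmFit and eBayes, without a block, and tumours with the moderated F in a fit with population as covariate. P-values were adjusted over all genes (threshold 0.05), and the fits were tested on simulated data. Deviations from the population means of same-numbered arrays correlated at 0.573, 0.695, 0.642 and 0.741, and those of other pairs at 0.221 or less, so the numbers, taken from the titles, pair the arrays. Alternatives changed the normalization, background, filter, probe choice, variance model, block and arrays. Every listed gene is named, and of the further pathway genes those that passed a test, and otherwise the 6 of smallest p between populations. The members and lists were chosen with earlier results of these data known. The number of arrays limits the precision. The files name build mm9, whose genome was not used here.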

Additional observations from a re-analysis of the deposited data

Results flagged for a closer look

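Each population holds 4 arrays, and for each of the 25 tested genes the gap between the end value and its nearest neighbour was set against the range of the 4. Of 50 such comparisons 7 stood out, where chance gives about 1 in 20 for independent values. The comparisons were not independent, because both populations came from the same tumours, and no share over all genes is given. The 7 are therefore a list of values to look at and no measure of an excess. Rnf43 was -5.74 on the GFP-negative array of tumour 631, not well above background, with its nearest neighbour at -0.39. Wnt11 stood apart in tumour 573 in both populations, at -3.01 in GFP-positive cells (nearest -0.58) and -2.92 in GFP-negative cells (nearest -0.54). The GFP-positive one of these was not well above background. Wnt10a was low in GFP-negative cells of the same tumour, at 2.45 against a nearest value of 4.59. Fzd2 was low in GFP-positive cells of tumour 573, at -0.018 with the nearest at 0.88. Fzd7 was low in GFP-positive cells of tumour 631, at -1.02 with the nearest at -0.17. Fzd6 was high in GFP-positive cells of tumour 567, at -1.09 with the nearest at -1.76, within a group whose value in tumour 573 was not well above background.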

How the results depend on the processing

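No gene and no Wnt member passed between populations in any of the 25 alternatives run for that comparison, the fixed and random replicate block included (0 calls each), so the block changed no call. The members' median difference stayed between -0.14 and 0.13. With arrays or tumours left out, 249 of 300 member differences kept their direction, and with other settings 297 of 310. The 297 include many repeated values and are no measure of robustness. The variance trend and the replicate blocks cannot change a difference in this balanced design. Dropping the filter or keeping only probes detected on all arrays also left the differences of the tested members unchanged. The mean of the passing probes could differ only for genes with several such probes. The 51 that turned when arrays were left out belonged to 16 genes, Rnf43 and Wnt5b among them, and the 13 that turned with other settings to 4 genes with differences near 0. Wnt5a was -0.041 with quantile normalization, -0.10 with median scaling, -0.044 with the percentile over probes and -0.057 with the common floor, with or without the block. Fzd2 was -0.081 with median scaling, -0.028 with the percentile over probes and -0.025 with normexp. Fzd6 was 0.044 with the percentile over probes detected on all arrays, 0.011 with normexp and 0.047 with the floor, with or without the block, and Tcf7 was 0.023 with that percentile. Fzd8 and Wnt10b had no value with the floor.

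Median scaling moved the median of all genes from -0.06 to -0.16. Without a filter (45586 genes) it was 0.19 and 19 members were above 0. Genes called between tumours numbered 2463 with quantile normalization (12.2%, with 7 members, 28%) and 0 without a filter (0 members). They were 1501 with the common floor (7.41%, with 2 members, 8%). With an array or tumour left out they were 1500 to 5054 (7.11% to 24.9%), with 5 to 12 members (16.7% to 48%). With median scaling they were 6469 (31.9%, against 56% of members) and with normexp 7353 (36.3%, against 60%). With a variance trend they were 6785 (33.5%, against 64%). With probes detected on all arrays they were 4693 of 13279 genes (35.3%) and 10 of 14 members (71.4%). Leaving arrays or tumours out gave ranges of -0.27 to 0.91 for Dkk3, -0.32 to 0.27 for Fzd2, -0.28 to 0.67 for Fzd4, -0.21 to 0.083 for Fzd6, -0.017 to 0.45 for Fzd7, -1.03 to 0.48 for Lef1, -0.082 to 0.24 for Lrp5, -0.14 to 0.46 for Lrp6, -0.44 to 1.64 for Rnf43, -0.25 to 0.13 for Tcf7, -0.56 to 0.30 for Tcf7l1, -0.091 to 0.25 for Tcf7l2, -0.78 to 0.49 for Wnt11, -0.91 to 0.17 for Wnt4, -0.55 to 0.51 for Wnt5a and -0.29 to 1.14 for Wnt5b.

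The percentile over probes, normexp on the median signal and the floor with the block were chosen after seeing the data. Normexp on the mean signal was not run. Signal over background limits the dim genes, above all on the GFP-positive array of tumour 573, where 34.1% of gene spots were well above background.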

Other observations

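Between tumours, 24 of the 59 further pathway genes tested (40.7%) passed limma's moderated F, beside 28.8% of all genes. The widest span was that of Rspo3, an R-spondin ligand that strengthens Wnt signals, with tumour means of -1.58, -1.56, 0.63 and -5.19 in tumours 566, 567, 573 and 631 (adjusted p = 0.0093). In tumour 631 the lowest levels called well above background were -5.16 (GFP-positive) and -4.65 (GFP-negative). The Rspo3 mean lay below both, so its span rests on a value that was not well above background. Fzd9, a receptor, had means of -0.58, -1.79, -0.22 and -4.33 (adjusted p = 0.00571), and Ror1, a Wnt5a receptor kinase, -0.80, -0.28, 0.59 and -2.35 (adjusted p = 0.00906). These 3 were highest in tumour 573 and lowest in tumour 631.

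Porcn, which adds the lipid to Wnt ligands, ran the other way, with means of -1.30, -0.18, -2.12 and 0.42 (adjusted p = 0.00724), as did the cyclin gene Ccnd1, with 1.55, 2.99, 0.64 and 3.33 (adjusted p = 0.00909). Wls, the carrier of Wnt ligands to the cell surface, was also highest in tumour 631, with means of 1.54, 2.24, 2.03 and 3.76 (adjusted p = 0.0116). Apcdd1, a membrane inhibitor and target of the pathway, had means of -3.43, -3.18, -2.26 and -0.48 (adjusted p = 0.0374). The others that passed were Dvl2, Csnk1e, Tle1, Wnt9a, Tle4, Ror2, Fzd3, Wnt7b, Myc, Ctnnbip1, Dkkl1, Daam1, Cd44, Kremen1, Amer1, Pygo2 and Lgr6, with spans from 0.93 to 2.43.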
